A study of Mus musculus with 6 samples.

Results

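The genes described here make, move, store and remove cholesterol. The list of 31 genes was taken by name, and every probe set annotated with a single one of these symbols was read on each array. Of the 31 genes, 29 had such a probe set, 61 probe sets in all, out of 18193 genes so measured on the array. Acat2, the cytosolic thiolase that feeds the pathway, and Soat1, which esterifies cholesterol for storage, had none and were not analysed here.

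The method, called TRAP for translating ribosome affinity purification, pulls the tagged ribosomes of one cell type out of a tissue lysate together with the mRNA they carry. The IP group was 3 samples of RNA purified on the ribosomes of serotonin neurons, and the unbound group was 3 samples of RNA that stayed in the lysate, labelled as total tissue RNA. Each sample pooled 5 adult mice, males and females, 6 to 12 weeks old. All 6 samples came from the BAC transgenic line Slc6a4 JD60 on a mixed FVB and c57/bl6j background. In this line the regulatory region of Slc6a4, the serotonin transporter gene, places the tagged ribosomes in serotonin neurons, and the unbound samples carry the transgene too. The tissue was midbrain and brainstem from the superior colliculi to the foramen magnum, with the cerebellum taken off. The comparison asks whether ribosomes of serotonin neurons carry more or less of the cholesterol transcripts than the tissue around them. Cell type and ribosome binding both differ between the groups and cannot be told apart, and neither can fewer cells of a type and less RNA per cell.

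Brain cholesterol is made within the brain, because plasma lipoproteins do not cross the blood-brain barrier. Acetyl-CoA is built up through mevalonate to isoprenoids, isoprenoids are joined to squalene, and squalene is closed and trimmed to cholesterol. The transcription factors of the SREBP family switch on these enzymes when membrane sterol is low, escorted by Scap and held back by the Insig proteins. Astrocytes export cholesterol through ABC transporters onto lipoproteins that carry apolipoprotein E, oligodendrocytes lay it down in myelin, and neurons release the excess by hydroxylating it with the enzyme encoded by Cyp46a1.

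Values are log2 expression after GCRMA, which the authors ran on each group separately. The IP values were then shifted by -0.23, the mean difference between the groups over 18 biotinylated control probe sets. A gene is read by its brightest probe set and was tested where at least 3 of the 6 arrays read 5 or more, a level used as the detection limit. A gene is said to have risen or fallen where limma's adjusted p was under 0.05 and the change at least 2-fold. The IP arrays correlated with each other at a Pearson's r of 0.996 to 0.999, and the unbound arrays at 0.994 to 0.997. Of 10581 genes tested, 10.4% rose and 41.1% fell, and the median log2 change was -0.65. Fallen genes made up 79.8% of all calls. That share was 71.4% with the values unscaled, 51.4% with arrays centred on the median of their expressed probe sets, 49.7% after quantile normalisation, 37.7% with arrays centred on the median of all their probe sets, and 99.7% when the poly-A spikes set the scale. The median change of all genes tested was -0.41, 0.06, 0.04, 0.41 and -3.37 in the same order. For this reason a change is also given below relative to the median of all genes tested, a difference that shifting the IP arrays by a constant leaves nearly as it is.

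The marker genes of serotonin neurons went with the label. All 7 of them rose, with Lmx1b under the detection limit in unbound RNA, and the other 6 by 2.64 to 5.81 on the log2 scale, among them Slc6a4, whose mean was 14.20 ± 0.12 on IP arrays and 9.05 ± 0.07 on unbound arrays (SD, n = 3 each). Of the astrocyte markers, 5 had means at the limit or above in both groups, and all 5 fell (median -3.19), as did all 7 such oligodendrocyte markers (median -2.95). Another 5 astrocyte and 2 oligodendrocyte markers stayed under the limit throughout IP, and for these, as for Lmx1b, the filter fixed the direction. Of 10 pan-neuronal markers, 2 rose (20%, against 10.4% of all genes tested) and 2 fell (20%, against 41.1%), with a median of -0.20.

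The promoters of the synthesis genes are shown first, since the enzymes of this pathway are known to share the control of SREBP proteins. For 25 of the 31 genes at least 1 promoter window was read from the RefSeq table (GRCm38.p6). The 250 bases before each annotated start were searched on both strands for 4 motifs. These were TCACNCCAC, a sterol regulatory element, CCAAT, the box bound by the NF-Y factor that works beside SREBP, GGGCGG, a GC box, and CACGTG, an E-box. The lines below are 5′ to 3′ along the gene, ending just before the start, with matches to any of the 4 motifs on either strand in capitals.
Hmgcs1 (chr13:119690101-119690350, plus strand, the sole member window with a sterol regulatory element): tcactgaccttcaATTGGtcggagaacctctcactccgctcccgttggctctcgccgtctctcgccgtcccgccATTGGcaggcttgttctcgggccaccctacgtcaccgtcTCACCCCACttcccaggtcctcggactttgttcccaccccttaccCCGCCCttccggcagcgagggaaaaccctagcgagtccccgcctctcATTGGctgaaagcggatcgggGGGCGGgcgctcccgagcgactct
Mvk (chr5:114444019-114444268, plus strand, higher in IP): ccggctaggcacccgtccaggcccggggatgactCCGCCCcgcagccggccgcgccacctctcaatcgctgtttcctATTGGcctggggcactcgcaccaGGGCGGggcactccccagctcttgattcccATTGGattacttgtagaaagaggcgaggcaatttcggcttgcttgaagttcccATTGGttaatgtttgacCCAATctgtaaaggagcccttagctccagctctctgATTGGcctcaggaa
Mvd (chr8:122443423-122443672, minus strand, higher in IP): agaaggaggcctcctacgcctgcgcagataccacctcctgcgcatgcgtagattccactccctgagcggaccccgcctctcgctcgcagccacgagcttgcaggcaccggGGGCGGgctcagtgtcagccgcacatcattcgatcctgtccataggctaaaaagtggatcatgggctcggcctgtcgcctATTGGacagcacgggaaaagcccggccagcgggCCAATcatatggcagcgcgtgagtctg
Msmo1 (chr8:64733579-64733828, minus strand, higher in IP): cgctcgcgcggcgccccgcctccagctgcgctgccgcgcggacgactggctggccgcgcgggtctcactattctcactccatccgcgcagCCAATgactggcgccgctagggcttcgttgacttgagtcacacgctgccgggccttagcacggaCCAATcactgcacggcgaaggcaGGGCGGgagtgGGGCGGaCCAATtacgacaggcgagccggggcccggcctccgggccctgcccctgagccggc
Lss (chr10:76531355-76531604, plus strand, lower in IP): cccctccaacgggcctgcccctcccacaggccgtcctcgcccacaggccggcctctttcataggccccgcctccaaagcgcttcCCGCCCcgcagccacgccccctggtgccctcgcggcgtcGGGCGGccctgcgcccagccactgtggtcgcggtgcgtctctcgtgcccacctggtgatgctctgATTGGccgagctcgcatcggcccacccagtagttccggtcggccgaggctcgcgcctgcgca
Hsd17b7 (chr1:169969206-169969455, minus strand, lower in IP): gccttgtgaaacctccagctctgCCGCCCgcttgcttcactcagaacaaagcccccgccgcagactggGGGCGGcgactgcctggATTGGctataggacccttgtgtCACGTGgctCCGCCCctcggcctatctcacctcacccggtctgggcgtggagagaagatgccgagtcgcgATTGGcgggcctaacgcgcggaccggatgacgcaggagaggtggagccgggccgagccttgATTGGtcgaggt
Abca1 (chr4:53159896-53160145, minus strand, lower in IP and shown as an efflux gene): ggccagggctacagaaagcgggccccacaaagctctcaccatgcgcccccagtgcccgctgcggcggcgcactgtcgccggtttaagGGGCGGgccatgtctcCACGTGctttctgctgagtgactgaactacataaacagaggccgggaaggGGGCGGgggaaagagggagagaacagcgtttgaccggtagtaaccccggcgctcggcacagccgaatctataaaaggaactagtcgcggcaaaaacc

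A CCAAT box lay in at least 1 window of 14 of the 15 synthesis genes with a window, or 93.3%, against 37.5% of the 27025 genes in the table. A GC box was found for 14 of the 15 synthesis genes too, against 35.4% of genes in the table. Counted by gene, an excess was also seen outside the synthesis genes. Of the 10 other members with a window, 70% held a CCAAT box and 80% a GC box. A gene counted if any of its windows matched, and these 10 genes had 17 windows. Counted by window, a CCAAT box lay in 8 of these 17 and in 14 of 18 synthesis windows, against 33.8% of windows of all genes. For the GC box the counts were 10 of 17 and 15 of 18, against 32.7%. Whether synthesis genes differ from the other members was not tested. The strict sterol regulatory element occurred for 1 of the 15 genes, Hmgcs1, starting 137 bases before its start site, against 1.22% of genes. Genes of either direction held CCAAT boxes. Mvk, Mvd and Msmo1, which were higher in IP, held 5, 2 and 3 CCAAT boxes, and Lss and Hsd17b7, which were lower, held 1 and 3. The Abca1 window held no CCAAT box, and the 3 Apoe windows held none of the 4 motifs. These matches describe letters in the window and say nothing of binding in these cells.

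Across the 29 measured genes, all of which passed the detection filter, 7 rose and 9 fell. The rise made up 24.1% of these genes, against 10.4% of all genes tested, and the fall 31%, against 41.1%. With no minimum fold 9 members were higher and 12 lower, against 22% and 56.9% of all genes tested. All IP arrays lay above all unbound arrays for 9 members, against 23.9% of genes, and below them for 12, against 59.1%. Every gene that rose was a synthesis enzyme, and all 4 genes of efflux and lipoprotein handling fell. Of the 29, 20 (69.0%) lay above the median change of all genes tested. Abca1 and Lpl passed the filter through their unbound arrays alone, so their direction was fixed by it. With genes limited to those whose means reached the detection limit in both groups, 7 of 27 members rose and 7 fell, against 10.4% and 33.2% of 8856 genes.

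**Figure D1:**
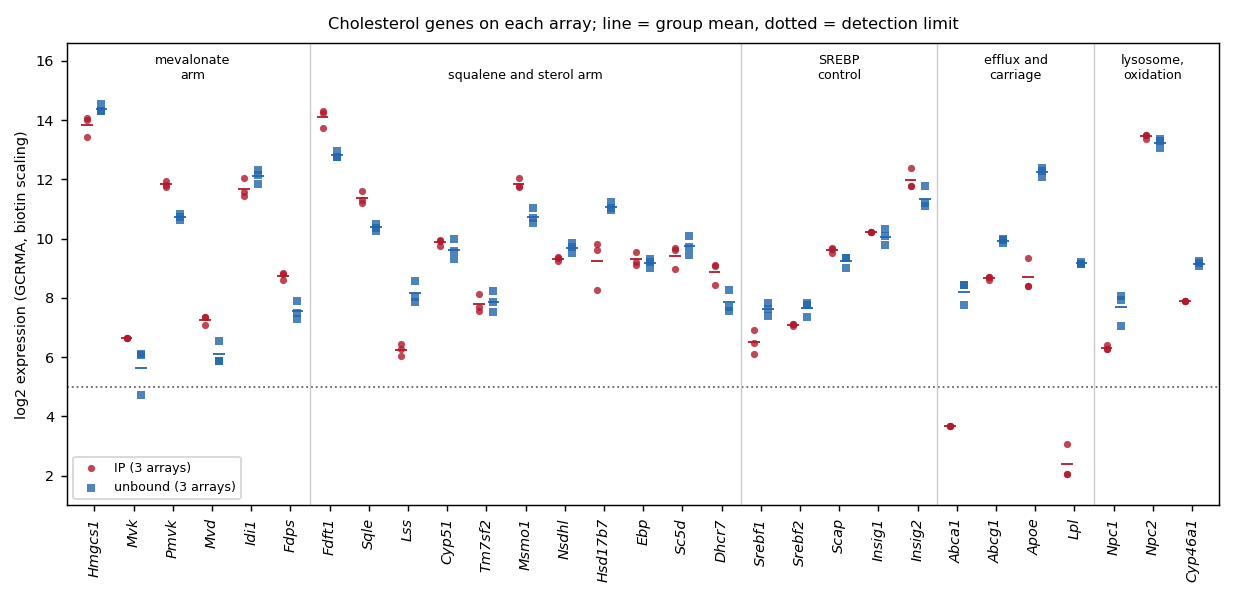
Log2 expression (y axis) of the 29 measured cholesterol genes (x axis, grouped by role) on each of the 3 IP arrays (red circles, left) and 3 unbound arrays (blue squares, right), with group means as short lines and the detection limit of 5 as a dotted line. IP points stand above unbound points for most mevalonate genes and far below them for Abca1, Apoe and Lpl.

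In the mevalonate arm, 4 of 6 measured genes rose (66.7%, against 10.4% of all genes tested) and none fell (against 41.1%). The median log2 change was 1.06. Pmvk, which encodes phosphomevalonate kinase, read 11.96, 11.74 and 11.82 in the IP samples, against 10.63, 10.72 and 10.82 in the unbound samples. Its IP arrays lay close together and all above the unbound arrays. That is a rise of 2.16-fold (log2 change 1.11 ± 0.09 SE, limma adjusted p = 7.91e-05), or 1.76 above the median of all genes. Mvd, the decarboxylase of the next step, read 7.35, 7.08 and 7.35 in IP, against 5.86, 5.88 and 6.55 in unbound RNA. The groups did not overlap, although unbound replicate 3 was the highest of its group. Mvd rose 2.24-fold (log2 change 1.17 ± 0.21 SE, adjusted p = 0.0025), and its other probe set gave 1.05. That dimmer set was not called, and its groups overlapped. Its unbound replicates 1 and 2 were under the detection limit (4.94 and 4.45).

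Fdps makes farnesyl diphosphate, the branch point to prenylated proteins, dolichol and ubiquinone. It read 8.60, 8.82 and 8.85 in IP, against 7.30, 7.51 and 7.89 in unbound RNA. Every IP array was above every unbound array, and the gene rose 2.28-fold (log2 change 1.19 ± 0.17 SE, adjusted p = 0.00087). Mvk, mevalonate kinase, read 6.65 on all 3 IP arrays, against 4.72, 6.09 and 6.11 in unbound RNA. Its fold of 2.01 (log2 change 1.01 ± 0.38 SE, adjusted p = 0.0489) leaned on unbound replicate 1, the lowest array. Without it the log2 change was 0.55, and the call was lost on leaving out any of the 6 arrays in turn (adjusted p from 4.78e-04 to 0.0998). The second Mvk probe set gave 0.45.

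Hmgcs1, the synthase that opens the committed path, and Idi1, the isomerase that prepares isoprene units, did not pass. Hmgcs1 read 13.42, 14.01 and 14.06 in IP, against 14.29, 14.31 and 14.55 in unbound RNA. The IP arrays lay below the unbound ones by less than 2-fold (log2 change -0.56, 95% interval -1.03 to -0.08, adjusted p = 0.0369), which was 0.09 above the median of all genes. Its probe sets disagreed in size, from -0.02 to -1.14 among the 4 past the filter. Idi1 read 12.05, 11.44 and 11.59 in IP, against 12.15, 11.86 and 12.33 in unbound RNA, and these groups overlapped (log2 change -0.42, 95% interval -0.91 to 0.07). Hmgcs1 and Idi1 were thus the 2 lowest of the arm, and with either median scaling their sign turned positive.

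In the squalene and sterol arm, 3 of 11 genes rose (27.3%, against 10.4% of all genes tested) and 2 fell (18.2%, against 41.1%). The median log2 change was 0.12. Fdft1, squalene synthase, read 13.74, 14.25 and 14.30 in IP, against 12.74, 12.74 and 12.95 in unbound RNA. The groups were well apart, and the rise of 2.43-fold was the largest of the 29 genes (log2 change 1.28 ± 0.17 SE, adjusted p = 6.43e-04). A second probe set, at 11.49 in IP and 10.37 in unbound RNA, gave 1.12. The brighter set is of the _x_at kind, whose probes can also match other transcripts.

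Sqle, squalene epoxidase, oxidises the product of that step and is a known rate-limiting enzyme. It read 11.62, 11.20 and 11.30 in IP, against 10.37, 10.26 and 10.51 in unbound RNA. The groups did not overlap and the adjusted p was 7.65e-04, but the fold of 1.99 lay just under the 2-fold minimum, beside Mvk just over it. Unscaled values, quantile normalisation and both median scalings placed Sqle over it, with log2 changes of 1.23 to 2.02.

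Lss, lanosterol synthase, closes epoxidised squalene into the first sterol. It read 6.05, 6.46 and 6.27 in IP, against 7.87, 8.05 and 8.58 in unbound RNA. All IP arrays were below all unbound arrays, and Lss fell 3.75-fold (log2 change -1.91 ± 0.21 SE, adjusted p = 2.68e-04), 1.26 below the median of all genes. Another probe set of Lss gave -1.47.  Its call was lost after quantile normalisation (-1.0) and with the median over all probe sets (-0.88).

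Downstream of lanosterol, Msmo1 (sterol methyl oxidase) read 12.04, 11.75 and 11.78 in IP, against 10.68, 10.53 and 11.03 in unbound RNA. The IP arrays lay above the unbound arrays, a rise of 2.16-fold (log2 change 1.11 ± 0.16 SE, adjusted p = 8.62e-04). Without unbound replicate 2 its log2 change was 0.998, just under 2-fold, and the call was lost. Dhcr7, the reductase of the last step to cholesterol, read 8.44, 9.08 and 9.10 in IP, against 7.58, 7.70 and 8.27 in unbound RNA. Its lowest IP array stood only just above its highest unbound array. Dhcr7 rose 2.03-fold (log2 change 1.02 ± 0.26 SE, adjusted p = 0.0111), and leaving out IP replicate 2, IP replicate 3, unbound replicate 1 or unbound replicate 2 took it under the call, at 0.92, 0.91, 0.89 and 0.95.

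Hsd17b7, a ketosteroid reductase of the same demethylation complex, fell. It read 8.26, 9.61 and 9.83 in IP, against 10.96, 11.04 and 11.25 in unbound RNA. The IP arrays were spread widely, with replicate 1 the lowest, and all lay below the unbound arrays (3.60-fold lower, log2 change -1.85 ± 0.41 SE, adjusted p = 0.00659). The call was lost with the median over all probe sets (-0.82, adjusted p = 0.102). The bright probe set is of the _x_at kind. Of 2 dimmer sets past the filter, one gave -1.73 and the other -3.26, both with IP means under the detection limit. The third enzyme of that complex, Nsdhl, read 9.34, 9.24 and 9.39 in IP, against 9.71, 9.52 and 9.85 in unbound RNA, a small separation (log2 change -0.37, 95% interval -0.64 to -0.10, adjusted p = 0.0202).

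By their brightest probe sets, the other enzymes of the arm stayed within 0.31 of 0, and their arrays overlapped between groups. Cyp51, the lanosterol demethylase, averaged 9.88 ± 0.12 on IP arrays and 9.63 ± 0.33 on unbound arrays (SD, n = 3 each). Tm7sf2, a sterol reductase, averaged 7.79 ± 0.30 in IP and 7.87 ± 0.36 in unbound RNA. Ebp, a sterol isomerase, averaged 9.30 ± 0.23 in IP and 9.18 ± 0.15 in unbound RNA. For Sc5d, a sterol desaturase, the mean was 9.43 ± 0.40 in IP and 9.74 ± 0.33 in unbound RNA, and its second probe set had the opposite sign (0.19). The 95% intervals of the log2 change reached from -0.20 to 0.68 for Cyp51, from -0.65 to 0.49 for Tm7sf2, from -0.24 to 0.48 for Ebp and from -0.93 to 0.31 for Sc5d, so a change approaching 2-fold was not excluded for Sc5d. All 4 lay above the median change of all genes, by 0.34 to 0.89. Over both synthesis arms, 7 of 17 genes rose (41.2%, against 10.4% of all genes tested) and 2 fell (11.8%, against 41.1%). Of the 17, 15 lay above the median change of all genes.

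**Figure D2:**
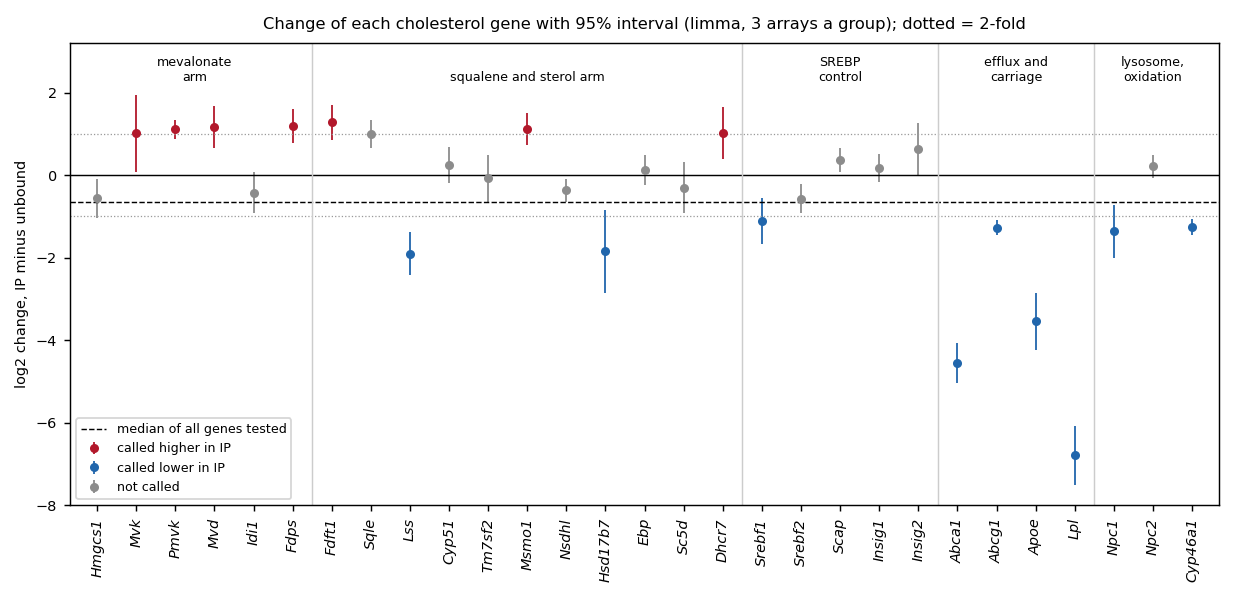
Log2 change of IP minus unbound (y axis) for each of the 29 cholesterol genes (x axis), with 95% intervals from limma over 3 arrays a group. Red genes rose, blue genes fell, grey genes did not pass. The dashed line is the median of all genes tested (-0.65). Of the 17 synthesis genes, 15 lie between that line and 1.28, with Lss and Hsd17b7 below it, and the efflux genes measured in both groups lie at -1.27 (Abcg1) and -3.54 (Apoe). The points of Abca1 and Lpl are differences from IP values under the detection limit.

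Of the 5 genes that control SREBP, 1 fell (20%, against 41.1% of all genes tested) and none rose (against 10.4%). Srebf1, whose product chiefly drives fatty acid synthesis, read 6.11, 6.49 and 6.92 in IP, against 7.81, 7.64 and 7.39 in unbound RNA. Every IP array was below every unbound array, a fall of 2.15-fold (log2 change -1.11 ± 0.23 SE, adjusted p = 0.00452). Its call was lost without scaling (-0.87), with either median scaling, after quantile normalisation and without IP replicate 1 (-0.91). Srebf2, the main activator of the cholesterol enzymes, read 7.05, 7.10 and 7.10 in IP, against 7.36, 7.78 and 7.83 in unbound RNA. That was a separation of less than 2-fold (log2 change -0.57, 95% interval -0.91 to -0.22, adjusted p = 0.0100), close to the median of all genes. Its sign turned positive with either median scaling and after quantile normalisation, whereas with the mean of its probe sets it was called lower (-1.14, adjusted p = 1.02e-04).

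Scap carries SREBP proteins from the endoplasmic reticulum to the Golgi for cleavage. Its IP arrays, at 9.52, 9.66 and 9.68, stood above its unbound arrays, at 9.02, 9.35 and 9.36, by a log2 change of 0.37 (95% interval 0.08 to 0.67, adjusted p = 0.0277). Insig1 and Insig2 encode the proteins that hold Scap back. Insig2 read 12.40, 11.77 and 11.77 in IP, against 11.77, 11.09 and 11.19 in unbound RNA, and its 3 probe sets gave 0.56 to 0.64. The groups touched, and the adjusted p was 0.0601. Within the same-numbered pairs IP was higher by 0.63, 0.69 and 0.58, and with the pairs as a block the adjusted p was 0.00266, at the same change of under 2-fold. Insig1 read 10.24 on all 3 IP arrays, against 10.32, 9.79 and 10.09 in unbound RNA (log2 change 0.17, 95% interval -0.18 to 0.51). Neither Insig gene passed, and both lay above the median of all genes.

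Identical values on all 3 IP arrays were found for Mvk, Insig1, Abca1 and Cyp46a1. They are a feature of the deposited values, where, among probe sets averaging at least 5, the same number stands on each array of the group for 15.8% in IP and 0.482% in unbound RNA. For these genes the IP spread is 0 and the error comes from the unbound arrays and from limma's pooling over genes.

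All 4 genes of efflux, carriage and lipoprotein lipolysis fell, against 41.1% of all genes tested. Apoe and Abcg1 were measured above the detection limit in both groups, and Abca1 and Lpl in unbound RNA alone. Apoe, the lipoprotein of the brain, read 9.35, 8.39 and 8.39 in IP, against 12.39, 12.07 and 12.27 in unbound RNA. IP replicate 1 was the highest of its group, and all IP arrays were far below the unbound ones. Apoe fell 11.6-fold (log2 change -3.54 ± 0.28 SE, adjusted p = 5.81e-05), or -2.89 relative to the median of all genes, and was still measured above the detection limit on every IP array.

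Lpl, lipoprotein lipase, read 3.08, 2.04 and 2.04 in IP, against 9.15, 9.13 and 9.22 in unbound RNA. Every IP array lay under the detection limit, so the fold is a bound: Lpl was at least 18-fold lower in IP (adjusted p = 4.47e-06). Abca1, the transporter that loads cholesterol onto lipoproteins, read 3.67 on all 3 IP arrays, against 8.44, 7.77 and 8.43 in unbound RNA. It was also below the limit in IP and at least 9.29-fold lower (adjusted p = 4.38e-06). Apoe fell under all 6 other scalings, the poly-A one included, and in each of the 6 fits that left out an array. Lpl and Abca1 did too, but the filter fixed their direction.

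Abcg1, which passes cholesterol to lipoproteins already carrying lipid, had the smallest fall of the 4. It read 8.59, 8.69 and 8.69 in IP, against 9.87, 9.98 and 9.95 in unbound RNA. Arrays of each group lay close together, and the fall was 2.42-fold (log2 change -1.27 ± 0.08 SE, adjusted p = 1.71e-05). A second, dimmer Abcg1 probe set gave -3.94, with IP at the floor of the scale, so the filter fixed its direction. Relative to all genes the bright set was 0.62 lower, and its call was lost with either median scaling and after quantile normalisation (-0.25 to -0.72).

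The summed level of the 10 astrocyte markers was 11.64 to 11.86 (log2) on IP arrays, against 14.42 to 14.95 on unbound arrays. Among IP arrays it was highest in replicate 1, where Apoe was highest, Abcg1 lowest and the oligodendrocyte sum lowest. Single astrocyte markers above the limit were split. Gja1, S100b and Slc1a2 were highest in IP replicate 1, Aqp4 was lowest there, and Gfap was highest in IP replicate 3. The astrocyte markers Aldh1l1, Slc1a3, Sox9, Acsbg1 and Fgfr3 were below the detection limit on every IP array. The 9 oligodendrocyte markers summed to 14.16 to 14.69 on IP arrays, against 16.36 to 16.63 on unbound arrays, with Olig2 and Myrf under the limit in IP. The 4 oligodendrocyte precursor markers summed to 8.12 to 8.38 on IP arrays, against 9.79 to 10.00 on unbound arrays. Of these 3 were under the limit in IP, and Cspg5 went the other way (log2 change 0.79, not called). The 9 microglial markers summed to 7.61 to 7.63 on IP arrays, against 10.63 to 10.82 on unbound arrays, and 6 of them were under the limit in IP. Another of them, Aif1, was higher in IP, at 5.73 ± 0.04 on IP arrays and 4.71 ± 0.08 on unbound arrays (SD, n = 3 each). All its unbound arrays were under the limit (at least 1.66-fold, adjusted p = 5.23e-05), so the filter fixed its direction. All 6 endothelial markers were under the limit in IP. Their sums were 5.07 to 5.16 on IP arrays, against 7.90 to 8.36 on unbound arrays. The part of glial and vascular cells in the falls of the export genes was not tested.

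Of the genes for lysosomal release and oxidation, 2 of 3 fell (66.7%, against 41.1% of all genes tested) and none rose (against 10.4%). Npc1, the membrane protein that passes cholesterol out of the lysosome, read 6.28, 6.40 and 6.28 in IP, against 8.05, 7.07 and 7.94 in unbound RNA. Its groups did not overlap, and it fell 2.58-fold (log2 change -1.36 ± 0.27 SE, adjusted p = 0.00358). Npc2, the soluble partner that hands cholesterol to Npc1, read 13.37, 13.51 and 13.50 in IP, against 13.31, 13.05 and 13.38 in unbound RNA. These groups overlapped by one array, and Npc2 did not pass (log2 change 0.22, 95% interval -0.06 to 0.49). Whether the 2 partners differ in their change was not tested.

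Cyp46a1, the neuronal cholesterol hydroxylase, read 7.90 on all 3 IP arrays, against 9.17, 9.23 and 9.07 in unbound RNA. It fell 2.39-fold (log2 change -1.26 ± 0.08 SE, adjusted p = 1.76e-05), 0.61 below the median of all genes. The calls of Npc1 and Cyp46a1 were lost with either median scaling and after quantile normalisation, where the log2 change was -0.34 to -0.68 for Npc1 and -0.23 to -0.58 for Cyp46a1. The pan-neuronal markers summed to 16.01 to 16.25 on IP arrays, against 16.30 to 16.55 on unbound arrays.

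**Figure D3:**
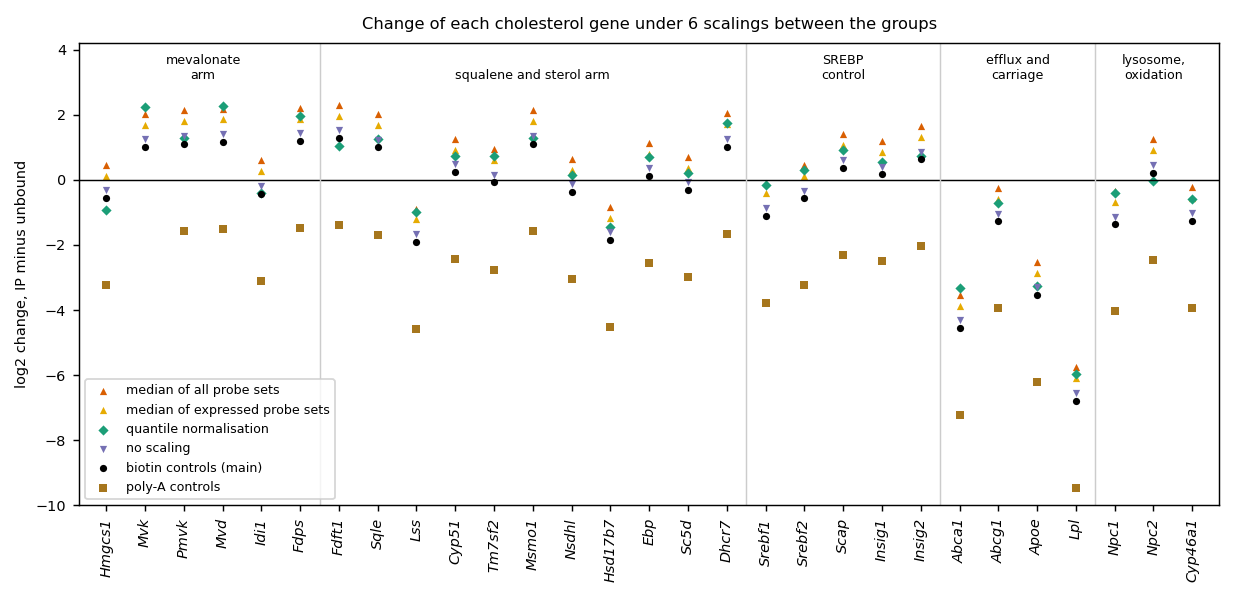
Log2 change of IP minus unbound (y axis) for each cholesterol gene (x axis) under 6 ways of setting the IP arrays against the unbound arrays. Apoe, Abca1 and Lpl lie under 0 throughout, and the poly-A scaling (brown squares) places every tested gene under 0.

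Directions of single genes therefore depend on how the groups are set against each other. Pmvk, Mvd, Fdps, Fdft1, Msmo1 and Dhcr7 rose under the biotin scaling, once for the group or array by array. They also rose unscaled, under both median scalings and after quantile normalisation. Unscaled and median-scaled values raise every change relative to the main fit, and the array-by-array biotin scaling leaves the changes the same. Those settings could hardly take a rise away. The poly-A scaling lowers every change, and under it no member rose and 28 of 28 fell, in a setting where 99.7% of all calls were falls. Measured against the median of all genes tested under the same setting, the members' median was 0.50 to 0.57 higher under every scaling but quantile normalisation. These scalings shift whole arrays and leave that difference nearly as it is by construction. The difference was 0.25 after quantile normalisation, 0.18 with no filter and 0.35 with the filter at 7.

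**Figure D4:**
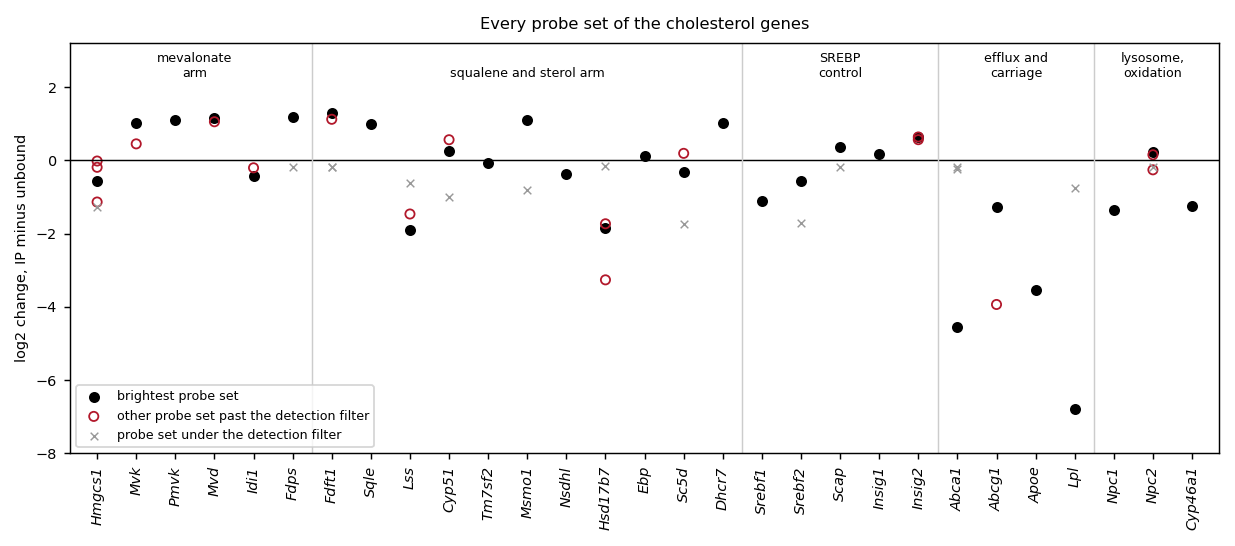
Log2 change of IP minus unbound (y axis) for all 61 probe sets of the cholesterol genes (x axis). Black points are the brightest set of a gene, open red circles other sets past the detection filter and grey crosses sets under it. Sets past the filter share their sign for 10 of 12 genes with more than 1. Among these are Hsd17b7 and Abcg1, where the filter fixed the sign of the dimmer sets.

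Of the 61 probe sets, 46 passed the filter. Among 12 genes with more than 1 such set, Npc2 and Sc5d had sets of both signs. Averaging all probe sets of a gene brought sets at the floor of the scale into the mean for Fdps, Fdft1 and Msmo1. Their log2 changes were then 0.50, 0.51 and 0.15. Mvk, whose 2 sets both passed the filter, was then at 0.73 and not called. Only Pmvk, Mvd and Dhcr7 rose on averaging, 3 of 28 members tested, near the share of all genes (889 of 8794).

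Other genes around the pathway were read from 8 further lists. Of 76 listed genes, 67 were tested, 2 rose (2.99%, against 10.4% of all genes tested) and 35 fell (52.2%, against 41.1%). For genes of SREBP processing and sterol sensing, 1 of 9 rose and 3 fell (11.1% and 33.3%, near the shares of all genes), with a median of -0.09. Pgrmc1, a membrane protein that binds sterol enzymes, rose by 1.21 (mean 14.45 ± 0.21 on IP arrays, against 13.24 ± 0.13 on unbound arrays, SD, n = 3 each). Mylip, the ligase that targets lipoprotein receptors for degradation, had a change of -2.92, and Mbtps2, a protease that cuts SREBP, one of -1.58. Both fell. Of the isoprenoid branch genes, none of 10 rose and 2 fell (20%, against 41.1%), with a median of -0.04. These were Pggt1b (-1.62) and Fntb, both subunits of protein prenyltransferases. Fntb was under the detection limit in IP and at least 1.84-fold lower, a bound short of 2-fold.

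Genes for lipoprotein receptors and lipoproteins mostly fell, 9 of 11 (81.8%, against 41.1% of all genes). Among the 10 with both means at the detection limit or above 8 fell, against 33.2% of all such genes. Their median was -2.07, against -0.43 for all such genes. Lcat, which esterifies cholesterol on lipoproteins, was at least 1.48-fold lower in IP. Apod, another glial apolipoprotein, fell by 3.13, and the receptor gene Vldlr fell by 2.48. The sole gene of this list that rose, chosen here after its value was seen, was Lrpap1, a chaperone of these receptors (1.41). Of 4 tested ABC lipid transporters, 3 fell (75%, against 41.1% of all genes), 2 of them measured in both groups. Abca2 was at least 4.13-fold lower, the change was -2.70 for Abca5 and -1.74 for Abcg4.

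Among sterol transfer and lysosomal genes 8 of 14 fell (57.1%, against 41.1% of all genes) and none rose (median -1.15), with Gramd1b at -3.28, Osbpl8 at -2.19 and Osbpl1a at -1.67. Of the oxysterol enzymes 3 of 4 fell (75%, against 41.1% of all genes), 1 of them measured in both groups. Cyp39a1 was at least 2.63-fold and Cyp27a1 at least 2.60-fold lower, and Cyp7b1 fell by 1.45. Among 4 tested redox partners and accessory proteins 1 fell (25%, against 41.1% of all genes) and none rose. The gene that fell, by 1.76, was Lbr, a nuclear envelope protein with sterol reductase activity. Of the 11 fatty acid synthesis genes, 6 fell (54.5%, against 41.1% of all genes) and none rose (median -1.09). The change was -2.09 for Scd1, a stearoyl-CoA desaturase, -1.5 for Fads2 and -1.36 for Scd2.

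**Figure D5:**
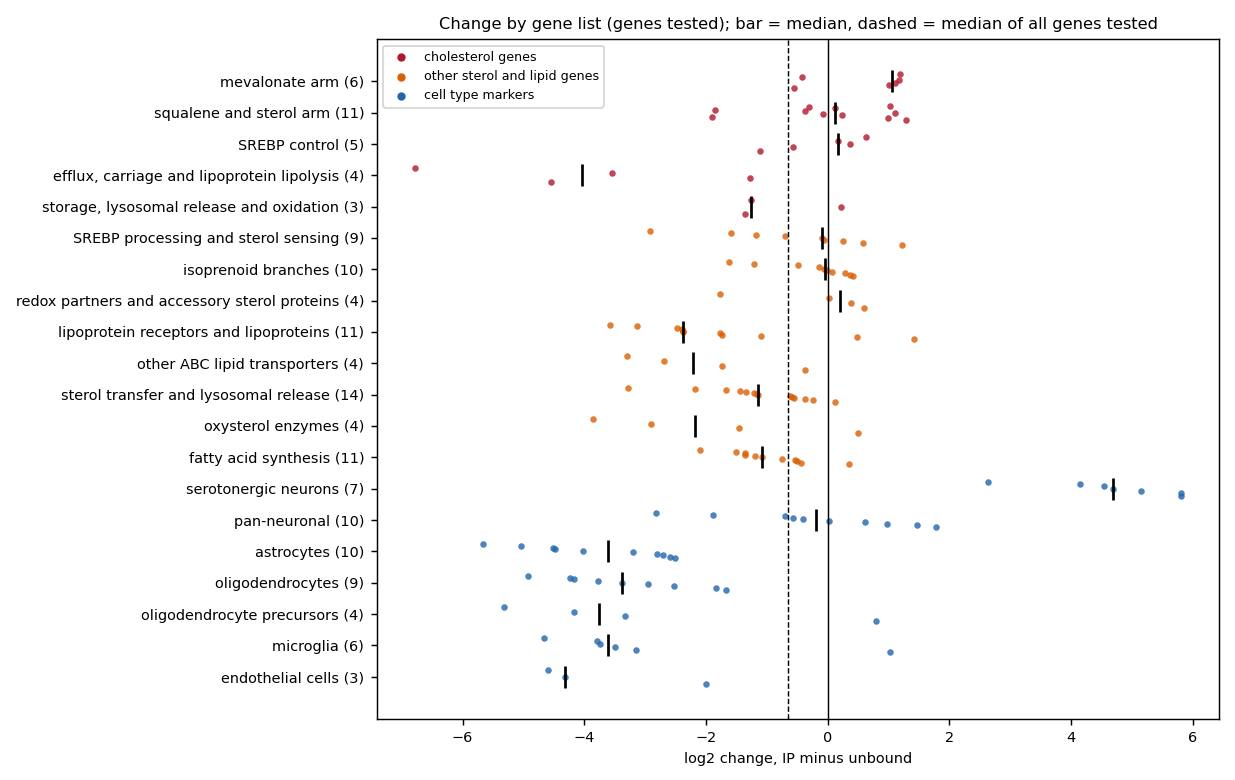
Log2 change of IP minus unbound (x axis) for each tested gene of the cholesterol groups (red), of other sterol and lipid lists (orange) and of cell type markers (blue), with the number tested in brackets, list medians as black bars and the median of all genes tested as a dashed line. The mevalonate arm has a median of 1.06, the lipoprotein list -2.38 and the astrocyte markers -3.61, the last 2 including genes under the detection limit in IP.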

How the data were processed

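The deposited log2 values of 6 arrays (45101 probe sets each) were made by the authors with GCRMA, per the submitters' processing notes, within each group apart from the other, per the series' design text. Samples went through an Affymetrix amplification kit from 20 ng of total RNA, per the labels' protocols. The labels call the samples biological replicates, and the number of arrays limits the precision.

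Symbols came from the platform annotation: 34945 probe sets had 1 symbol and 932 had several. Of those with 1 symbol, 34741 were found in RefSeq by Entrez ID, and 0 symbols changed. limma 3.58.1 (R 4.3.3; lmFit and eBayes, two-sided) was fitted to 10581 genes with Benjamini-Hochberg adjustment, and tested on simulated data. Bounds (at least N-fold) count each array under the limit as 5. Genes given as a bound passed the filter through a single group, so it fixed their direction. Same-numbered IP and unbound arrays had correlated deviations from their group means (0.27, 0.16 and 0.10), and each unbound label names its replicate, so the replicate number was also fitted as a block. IP replicate 3 correlated at 0.21 with unbound replicate 2. All 31 members are named. From other pathway lists up to 3 called genes with the largest change are named, with Lrpap1 and Clu added. Marker genes were not named by the size of their change. Members and lists were chosen with earlier results of these data known.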

Additional observations from a re-analysis of the deposited data

How the results depend on the processing

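The alternatives were 6 other scalings, 2 filters, 2 ways of reading probe sets, no minimum fold, leaving out genes with identical values, the pairs as a block and 6 fits without an array. The replicate block (7 members higher and 9 lower, 5468 calls in all) changed no member's call. Of all genes tested 5458 were called, against 8350 with no minimum fold and 10027 with the poly-A controls. In the main fit 7 of 29 members were higher and 9 lower, against 1104 and 4354 of 10581 genes. The median of all probe sets gave 14 of 29 higher and 3 lower, against 3653 and 2212 of 10911 genes. Poly-A controls gave 0 of 28 higher and 28 lower, against 35 and 9992 of 10293 genes. The mean of probe sets gave 3 of 28 higher and 9 lower, against 889 and 3179 of 8794 genes. There the share of members higher was near that of all genes. With the mean of probe sets Abca1 was no longer tested and Srebf2 was called lower (-1.14). With the median of expressed probe sets 5 of 29 were lower, against 2772 of 10773 genes. After quantile normalisation 4 of 29 were, against 2479 of 10528 genes. Without 1 array, 4 to 7 were higher, the fewest without unbound replicate 2, and 8 to 9 were lower. Over all 10581 genes these fits gave 1090 to 1127 higher and 4247 to 4405 lower. The other lists had 37 calls, 23 after quantile normalisation and 67 with the poly-A controls.

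The sign of the log2 change turned as follows. With the median of all probe sets it was 0.47 for Hmgcs1, 0.60 for Idi1, 0.94 for Tm7sf2, 0.65 for Nsdhl, 0.71 for Sc5d and 0.45 for Srebf2. With the median of expressed probe sets it was 0.13 for Hmgcs1, 0.26 for Idi1, 0.61 for Tm7sf2, 0.32 for Nsdhl, 0.38 for Sc5d and 0.12 for Srebf2. After quantile normalisation it was 0.72 for Tm7sf2, 0.14 for Nsdhl, 0.20 for Sc5d, 0.29 for Srebf2 and -0.033 for Npc2. Tm7sf2 was 0.15 unscaled. With the mean of probe sets Cyp51 was -0.070 and Npc2 -0.020. Leaving out 1 array in turn gave Tm7sf2 -0.26 to 0.10, above 0 without IP replicate 1 or unbound replicate 3, and Ebp -0.014 to 0.21, below 0 without IP replicate 1. The poly-A controls gave Pmvk -1.56, Mvd -1.51, Fdps -1.49, Fdft1 -1.40, Sqle -1.68, Cyp51 -2.43, Msmo1 -1.57, Ebp -2.56, Dhcr7 -1.65, Scap -2.30, Insig1 -2.51, Insig2 -2.05 and Npc2 -2.46. A scaling shifts all genes by construction, and averaging probe sets brings in dim ones. For the other changes the cause was not tested.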
